A study of Oryzias melastigma with 6 samples.

Results

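A set of 71 short sequences was listed in the ovary of marine medaka and in none of the 5 other organ libraries of the series, and none of them matched a conserved miRNA. They were chosen by their listing: a sequence of the ovary file at 10.03 RPM (reads scaled to a fixed library total) or more, absent from the other 5 files as an exact string. Of 379 ovary sequences at or above that minimum, 78 were ovary-only (20.6%), and in testis the same count was 69 of 319 (21.6%). From the 78, 7 were left out as miRNA (3 miR-202-3p, 2 miR-202-5p, 1 miR-24-3p and 1 miR-27-3p) and 0 as adapter. Presence in ovary and absence elsewhere was therefore the rule and is not a result. No ovary-only sequence lay below the minimum. The members nearest to it stood at 10.05 RPM (a fragment of 18S rRNA) and, for 3 tRNA-derived members with equal values, at 10.1 RPM.

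The fish were breeding Oryzias melastigma, a small saltwater species. The series sequenced size-selected RNA from pooled tissue, with 1 library each for female brain, female liver, ovary, male brain, male liver and testis. No agent and no altered allele is named for any group. Each library stood alone, so no value has a replicate error, no test between organs was possible and each value describes 1 pool. Only sequences of 20 to 23 nt were listed, from implied totals of 18.7 to 25.5 M reads (M, mega). The listing minimum was 10.004 RPM in ovary and 6.002 to 10.03 RPM in the other files. An unlisted sequence was taken to lie under that value and was not shown to be absent. Filters applied before listing were not given, so limits based on the minimum assume that none removed a sequence. Listed sequences held 2.08% to 2.95% of reads in the gonads and livers, against 21.7% in male brain and 24.0% in female brain. The ovary label was checked by miRNA: miR-202-5p, an miRNA of fish gonads, summed to 2280 RPM in ovary and 1256 RPM in testis and was unlisted in brain and liver. Brain miR-9-3p and miR-124-3p and liver miR-122-5p were unlisted in ovary, whereas miR-153-3p stood at 22.9 RPM and miR-194-5p at 117 RPM there. Blood-cell miR-451-5p was at 100.1 RPM and smooth-muscle miR-143-3p at 1045 RPM.

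Small RNA libraries hold more than miRNA. Fragments of tRNA, the adaptors that carry amino acids to the ribosome, often come from the 5' end of the molecule, and fragments of ribosomal RNA come from the most abundant RNA of most cells. Oocytes of fish and frogs stockpile 5S rRNA, the small RNA of the large ribosomal subunit, and in Xenopus and zebrafish the oocyte-type 5S genes differ in sequence from those used in somatic cells. Gonads also make piRNAs, which guide Piwi proteins against transposons. They typically begin with U (T in these files), and those made in the ping-pong cycle carry A at position 10 and pair with a partner over their first bases. Most piRNAs are longer than the sequences listed here, so these files show at most their short edge.

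The tRNA-derived members are printed first because, under a wider assignment described below, they hold the most reads, 52.5% of the summed RPM of the set. Within this, Asn members held 12.5% of the summed RPM of the set and Glu members 13.2%. None of the Asn and Glu members matched a tRNA reference directly, with at most 2 mismatches. Capitals in the first 8 lines mark bases that differ from a sequence listed in other organs, and the lines marked as listed elsewhere are such sequences.
Val, 20 nt: gtttcTgtagtgtagtggtt
Val, 23 nt: gtttcTgtagtgtagtggttatc
Gln, 20 nt: ggttcTatggtgtaatggtt
Ser, 21 nt: gttgtTgtggccgagtggtta
Ser, 21 nt, listed elsewhere: gttgtCgtggccgagtggtta
Asp, 20 nt: tcctcgttagtatagtggAc
Asp, 20 nt, listed elsewhere: tcctcgttagtatagtggTc
Glu, 23 nt: tccctgAtggtctaAtggCtagg
In the Asn lines the capital marks position 9, counted from 1 at the 5' end, where 3 different bases were listed. The last pair, in lower case, lacks bases inside the sequence.
Asn, 22 nt, T form: gtctctgtTgcgtaattggcta
Asn, 22 nt, G form: gtctctgtGgcgtaattggcta
Asn, shortened, 20 nt: gtctctggcgtaattggcta
Glu, shortened, 20 nt: tccctggtctaatggctagg

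The 5S lines show the 5' end of the molecule, where the capital is a leading A that the reference lacks, and its 3' end, where the capital is a base that differs between organs.
5S 5' end, 22 nt: Agcttacggccacaccgccctg
5S 5' end, 23 nt: gcttacggccacaccgccctgag
5S 3' end, 21 nt: gaataccagAtgctgtaagtt
5S 3' end, 21 nt, listed elsewhere: gaataccagGtgctgtaagtt

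Among members with no match to rRNA or tRNA, those below are the most abundant, with the shared word GATCT in capitals where it occurs and otherwise the first base.
Unmatched 1: tgaaGATCTtctgcagctgcagg
Unmatched 2: tGATCTaacatgccagaggctg
Unmatched 3: ttttGATCTtctgtgggcacagg
Unmatched 4: tgtGATCTcttgtatgccagcag
Unmatched 5: Tctggttagccaagtggagcgcc
Unmatched 6: Tctggtgcagcagctgctgcttc
Unmatched 7: Tatccttcgatcattggccgacc

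Together the 71 members held 1925 RPM, or 44054 reads, which is 0.193% of the ovary reads (95% Wilson interval 0.191% to 0.194%) and 6.53% of the listed ovary RPM. Their values ran from 10.05 to 143 RPM with a median of 16.4 RPM, which corresponds to 230 to 3279 reads per member. The distribution was steep: 4 members exceeded 100 RPM, 10 reached 50 RPM and 44 lay under 20 RPM. The 15 most abundant held 54.1% of the set. By the wider assignment described below, 10 in that list were tRNA-derived, 2 were 5S fragments and 3 were unmatched. Counting error alone was small at the top, with an exact Poisson interval of 138 to 148 RPM for the most abundant member, and wide enough near the minimum (8.79 to 11.4 RPM for the last) that membership of the lowest sequences could turn on it. The reads are PCR products without molecular identifiers, so these intervals cover counting error only.

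**Figure D1:**
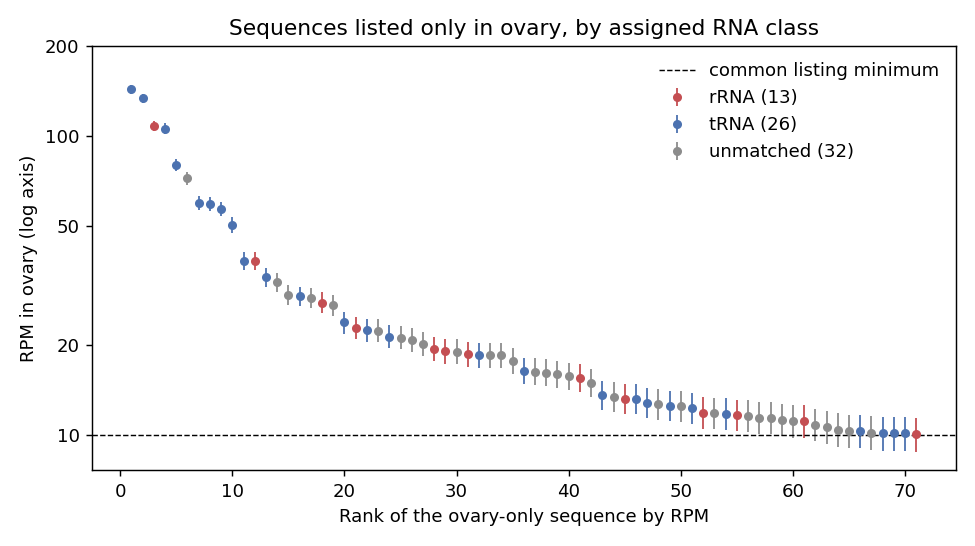
RPM in ovary (log axis) of the 71 ovary-only sequences in order of abundance, coloured by assigned RNA class. Points are single values of 1 library, bars are 95% exact Poisson intervals for counting error, and the dashed line is the common minimum of 10.03 RPM. Blue tRNA points fill most of the top ranks and grey unmatched points the middle and lower ones.

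By full-length comparison without gaps and with at most 2 mismatches, 9 members matched rRNA (12.7%) and 10 matched tRNA (14.1%). All 19 matches were on the sense strand. A wider assignment, made after the sequences were seen, also counted members that overlapped such a match, matched with 3 mismatches or equalled another member with a few inner bases missing. It gave 13 rRNA members with 327.6 RPM, 26 tRNA members with 1010 RPM and 32 unmatched members with 587 RPM. The references were conserved vertebrate sequences and not those of the medaka, so a mismatch to a reference is not by itself a property of the ovary. For 18S and 28S rRNA they were stretches of human sequence. A fragment from a part that these do not cover, or that differs more in medaka, would count as unmatched and be missing from the rRNA sums.

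Among the tRNA members, the strongest group was a 5' fragment of tRNA-Val, which carries valine. It was listed at 143 RPM as 20 nt, at 134 RPM as 21 nt and at 80.2 RPM as 23 nt, all with T at position 6. The same fragment with C at that position, written C6T for shared base, position and ovary-only base, was listed in all 6 libraries. At 20 nt the C form stood at 45.0 RPM in female brain, 50.7 in female liver, 56.2 in ovary, 31.4 in male brain, 56.5 in male liver and 89.5 in testis. Ovary listed both forms, and every other library the C form alone. That no other library listed the T form is the rule of selection and not a result.

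The T form made up 71.8% of the pair in ovary at 20 nt (Wilson interval 70.5% to 73.1%), 69.1% at 21 nt (67.8% to 70.5%) and 21.97% at 23 nt (21.1% to 22.9%). Its share at 23 nt thus lay below those at 20 and 21 nt within the same library, beyond counting error. Over the 3 lengths it was 357 RPM against 401 RPM for the C form, or 47.1%. Elsewhere the T form was unlisted by the rule of selection, and the 3 lengths are those at which ovary listed it. Outside ovary the listing minimum allowed at most 4.7% in testis, 8.9% in male liver, 9.2% in female liver, 11.3% in female brain and 14.1% in male brain. The C form summed to 609 RPM in testis and 110 to 190 RPM in brain and liver.

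tRNA-Glu, the carrier of glutamate, gave the next group, and all of its members were placed by the wider assignment. Its 23 nt member stood at 106 RPM, its 20 nt member at 21.4 RPM and its 21 nt member at 12.8 RPM, and each differed from a fragment listed in all 6 libraries by G7A, G15A and T19C. At 23 nt the shared form was 27.3 RPM in ovary, the lowest of the 6 libraries, against 45.2 RPM in male brain, 53.6 in female brain, 59.8 in male liver, 62.2 in testis and 96.3 in female liver. At 20 nt the order was different: the shared form reached 286 RPM in ovary, second to testis at 466 RPM, and was lowest in female liver at 101 RPM.

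The ovary-only form of the Glu pair also differed in its share between lengths. It was 79.5% of the pair at 23 nt (78.0% to 80.9%), 56.0% at 21 nt (51.7% to 60.2%) and 6.9% at 20 nt (6.4% to 7.6%). This ran opposite to Val, where the longest fragment had the lowest share. Over the 3 lengths the ovary-only form held 30.2%, and the minimum allowed at most 5.2% in testis and 6.1% to 9.4% in brain and liver. By the rule of selection the ovary-only form was unlisted in all of these.

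**Figure D2:**
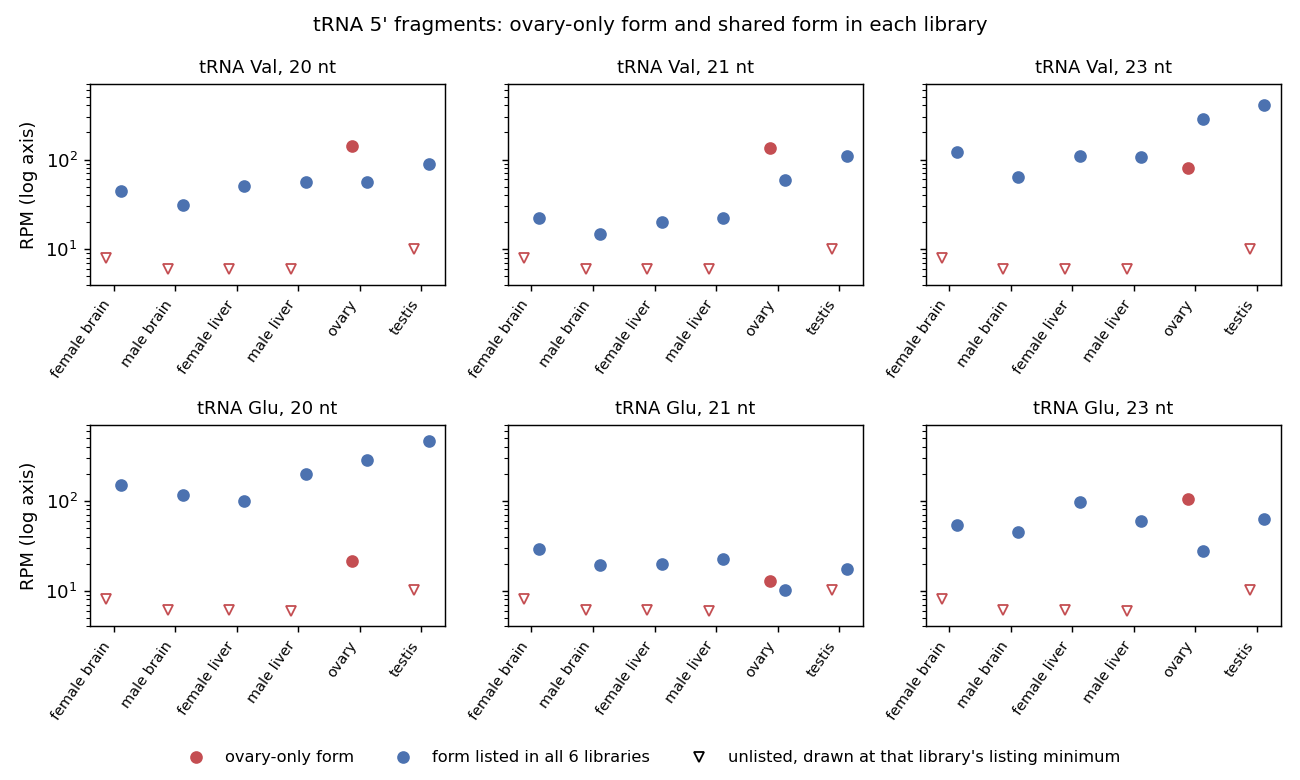
RPM (log axis) of the ovary-only form (red) and of the form listed in all 6 libraries (blue) of the tRNA-Val and tRNA-Glu 5' fragments, by library, in 1 panel for each fragment length. Open triangles stand at a library's own listing minimum for an unlisted form. Red filled points occur in ovary alone, as the selection requires, and their place relative to blue changes between lengths.

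A C6T difference also marked tRNA-Ser and tRNA-Gln, the carriers of serine and glutamine. Ser members were listed at 23.8 RPM as 22 nt, 12.5 RPM as 23 nt and 10.1 RPM as 21 nt. At 21 nt the C form stood at 18.7 RPM in ovary, 7.56 RPM in male liver and 49.0 RPM in testis, and the T form made up 35.2% of the ovary pair (31.7% to 38.9%) against at most 17% in testis. For Gln the T form was 11.8 RPM and the C form 14.1 RPM in ovary, a T share of 45.6% (41.6% to 49.6%). The Gln C form was at 24.2 RPM in testis, where the T form could hold at most 29.3%, and at 7.29 RPM in male liver. In male liver the limit was 44.3% for Ser, above the ovary share, and 45.2% for Gln, inside its interval, so these limits do not separate male liver from ovary. By the rule of selection the T forms were unlisted outside ovary. Each limit there thus reflects only the listing minimum and the level of the C form. A further Gln member, at 10.3 RPM, matched another stretch of that tRNA without mismatch.

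Asp members, from the carrier of aspartate, were listed at 59.8 RPM as 20 nt and 29.1 RPM as 21 nt. Their nearest relative elsewhere, with T19A as the difference, was listed in female liver alone at 7.88 RPM. In ovary that relative was unlisted, so the ovary-only form was at least 85.7% of this pair. A 20 nt form that differed from the 20 nt member only in its last 2 bases was listed in female brain, female liver and male liver. Together with its variant at position 9 it summed to 33.1, 87.8 and 28.5 RPM there.

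Counting each overlap group once, 14 members differed from a relative in another library by 8 substitutions, in 5 overlap groups and 1 single member (Gln). Of the 8, 7 were transitions (a purine for a purine or a pyrimidine for a pyrimidine), and C6T occurred in 2 overlap groups and in the single member. These 14 members held 676 RPM, or 35.1% of the set. A further 6 members differed from a sequence of another library only in where they began or ended. No relative within 3 mismatches was listed for the other 51. No genome was used, so neither form was placed on a gene, and a difference in the gene, in the RNA and in the reading of it cannot be told apart here.

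tRNA-Asn, the carrier of asparagine, gave 9 members, all by the wider assignment, and no listed relative in other libraries. At 22 nt the T form at position 9 was listed at 59.3 RPM, the G form at 38.3 RPM and a C form at 13.6 RPM. Over the 6 full members of the group T held 54.97% of the RPM, G 36.3% and C 8.7%. A G and a T form at position 9 also occurred among the 23 nt Glu members, at 106 and 13.2 RPM. Variation at that position was not particular to ovary: sets of non-miRNA sequences alike except at position 9 numbered 4 in ovary, of which 3 were members, and 1 to 3 in every other library.

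Shortened forms were abundant. The 3 shortened Asn members (85.1 RPM in all) equalled the G form without 2 bases, TG, from position 6 on, and the most abundant stood at 50.4 RPM. Leaving out TT at position 8 of the T form, or TC there from the C form, gives the same letters, so the source of the shortened form is not fixed by its sequence. Of the 3 shortened Glu members (101 RPM), 2 equalled the 23 nt Glu member without 3 bases, TGA, from position 5 on, and were listed at 57.1 RPM as 20 nt and 33.7 RPM as 23 nt. Leaving out ATT from position 7 on in the Glu member with T at position 9 gives the same letters, so their source is not fixed either. The third lacked TG from position 5 on and was at 10.1 RPM. The nearest reference of all 3 shortened Glu members was tRNA-Gln, at 4 or 5 edits, so their name rests on the full Glu members. The longest shortened Asn and Glu members ran past the end of their full counterparts and were compared over their first 21 and 20 bases. No other library listed any of these shortened sequences, by the rule of selection.

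5S rRNA supplied 10 members with 294 RPM, 6 by direct match (101 RPM) and 4 by overlap with one of these (193 RPM). The direct matches were to a human or a zebrafish somatic 5S reference. Whether any member comes from an oocyte-type gene was not tested. From the 5' end came 5 nested fragments summing to 216 RPM. The 4 that begin with the extra A were listed at 108, 38.2, 27.7 and 19.1 RPM, and the one without it at 22.8 RPM. A middle stretch that matched the human reference without mismatch gave 3 members at 19.4, 15.6 and 11.1 RPM. A fragment of that stretch beginning 1 base later was listed in male brain at 10.6 RPM. The 3' end gave 2 members at 18.6 RPM (22 nt) and 13.2 RPM (21 nt).

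No 5' end fragment of 5S was listed in any other library. At the 3' end the ovary-only form differed by G10A from the 21 nt form listed at 97.1 RPM in female brain, 72.4 in male liver, 25.4 in testis and 17.2 in female liver. That G form was unlisted in ovary and in male brain. In ovary the A form was thus at least 57.0% of the pair, whereas it could be at most 7.6% in female brain, 7.7% in male liver, 26.0% in female liver and 28.3% in testis. The A form was unlisted outside ovary by the rule of selection, so these upper limits rest on the listing minimum.

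Across all listed sequences at or above the common minimum, the rank of ovary in 5S depended on how fragments were assigned. Sequences that matched 5S directly, with at most 2 mismatches, summed to 101 RPM in ovary (6 sequences), below 115 RPM in female brain and above 86.1 in male liver, 25.4 in testis, 17.2 in female liver and 10.6 in male brain. With the 4 members that overlap such a match, a rule made after the sequences were seen, ovary came to 294 RPM, the highest of the 6, while the other libraries kept their values. All 10 ovary sequences were members. For 18S rRNA, the RNA of the small ribosomal subunit, ovary held 137 RPM, the lowest of the 6, against 416 to 1517 RPM elsewhere. The ratio of 5S to 18S in ovary was 0.737 with direct matches and 2.15 with the overlapping members, against 0.011 to 0.172 in the other libraries under both. The ovary value of 5S rests on the members and hence on the selection, while 18S in ovary came almost wholly from sequences shared with other organs. In pooled tissue a different mix of cells and a different level per cell cannot be told apart.

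**Figure D3:**
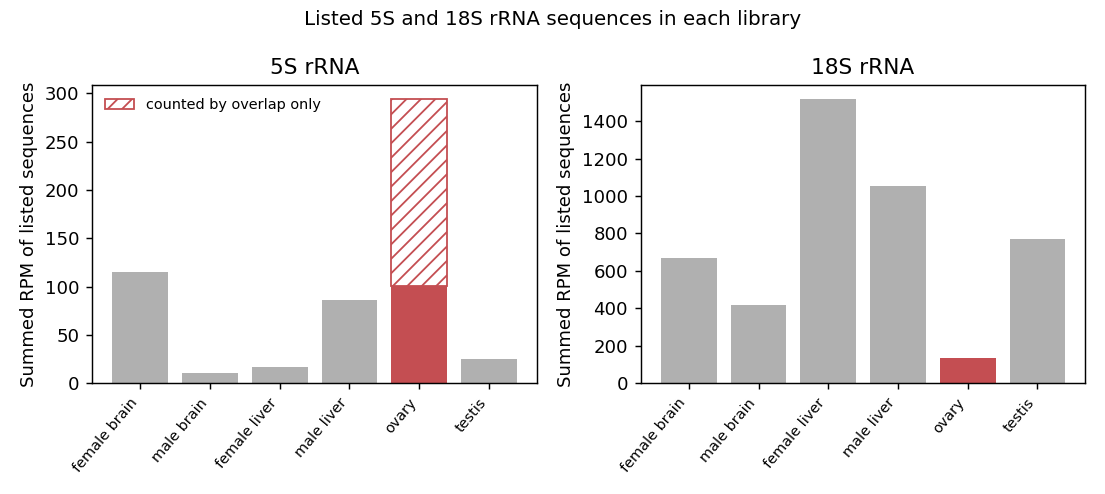
Summed RPM of listed sequences matched to 5S rRNA (left) and 18S rRNA (right) in each library, with ovary in red. Bars are single values of 1 library, filled for direct matches and hatched for 5S sequences counted by overlap only. The filled 5S bar of ovary (101 RPM) is below that of female brain (115 RPM), the whole bar (294 RPM) is above it, and the 18S bar of ovary (137 RPM) is the lowest.

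The remaining ribosomal members were single fragments: 11.9 RPM for 5.8S, 11.7 RPM for 28S and 10.05 RPM for 18S. The 5.8S member was 1 base longer than a fragment listed in ovary at 18.8 RPM and in female liver at 8.04 RPM. The 28S member overlapped a fragment listed in male brain at 7.8 RPM.

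Overlap was common in the set. With at least 16 nt shared on the same strand and at most 1 mismatch, 39 of 71 members (54.9%) fell into 12 groups, which held 73.5% of the RPM. The largest had 6 members, and 8 groups had 3 or more. In 10 of the 12 groups all members began with the same 8 bases and differed in their 3' end or in a base inside. Of the 39 grouped members 33 were ribosomal or tRNA-derived, a share that the assignment raises, since some members took their class from their group. The unmatched groups were 4 nested fragments (20.8, 14.9, 13.4 and 11.8 RPM) whose nearest reference was tRNA-Gly at 4 edits, and a pair at 72.2 and 10.2 RPM that differed only at position 11.

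Lengths leaned to the upper end of the listed window: 13 members had 20 nt, 12 had 21 nt, 15 had 22 nt (21.1%) and 31 had 23 nt (43.7%). T was the first base of 39 (54.9%), G of 24, A of 6 and C of 2. At position 10, A stood in 14 (19.7%), C in 13, G in 29 and T in 15. These totals mix unlike classes. Of the 26 tRNA members 16 began with G and 10 with T, 22 had G at position 10 and 0 had A. In the 13 rRNA members A began 5 and T 4, and C stood at position 10 in 6.

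The 32 unmatched members of the wider assignment differed in makeup from the rRNA and tRNA members. T began 25 of them (78.1%), 19 were 23 nt long (59.4%) and 17 were both. The 5 that began with G lay 4 edits from a tRNA reference, Gly or Tyr. Some members counted as Asn or Glu tRNA lay 4 or 5 edits from their nearest reference, as far or farther. The share with T thus depends on where the line was drawn. Among the 25 that began with T, position 10 was A in 9, T in 7, C in 6 and G in 3. GC content of the 32 ran from 22.7% to 72.7% with a median of 47.8%, and 26 of the 32 overlapped no other member. Members that overlapped an rRNA or tRNA member had been given its class, which raises that share. Among testis-only sequences with no match at 3 mismatches, 56 of 63 began with T (88.9%) and 38 had 23 nt (60.3%). By that same rule 29 of 47 ovary-only members began with T (61.7%) and 24 had 23 nt (51.1%). These 47 still hold 5S, Asn and Glu members that only the wider assignment placed. That assignment was not applied to testis, so the unmatched sequences of the 2 gonads were not compared like for like.

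**Figure D4:**
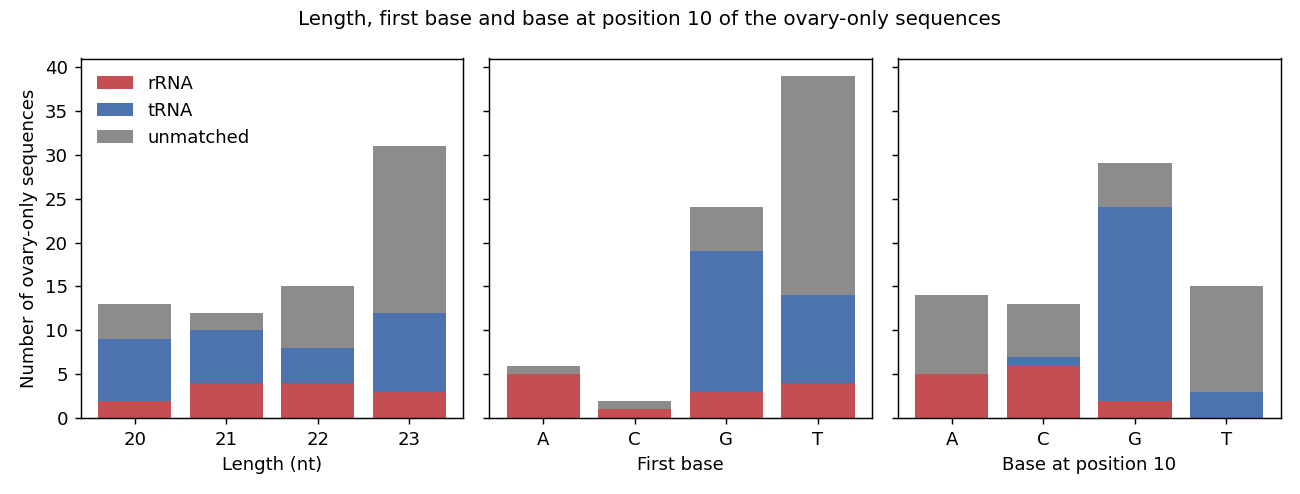
Number of ovary-only sequences by length, first base and base at position 10, stacked by class (rRNA red, tRNA blue, unmatched grey; 71 sequences in each panel). The unmatched class fills most of the 23 nt and T bars, and the tRNA class most of the G bars.

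No pairing of the ping-pong kind was found. In 0 cases did the first 10 bases of a member complement the first 10 of any sequence in the 6 files, and 0 pairs of members overlapped as reverse complements over 16 nt. Since piRNAs above 23 nt were not listed, this covers only partners inside the window. None of the 32 unmatched members shared bases 2 to 8, the seed by which an miRNA finds its targets, with any of 154 seeds of the conserved list. Sequences that matched that list had already been left out, so the rule itself made a shared seed less likely.

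The most abundant unmatched sequence, Unmatched 1 in the list above, stood at 72.2 RPM. It was followed by Unmatched 2 at 32.4, Unmatched 3 at 29.4, Unmatched 4 at 28.7 and Unmatched 5 at 27.2 RPM. Unmatched 6 was at 22.4 RPM and Unmatched 7 at 21.2 RPM, and the other unmatched members lay at or below 20.8 RPM. Unmatched 2 is the one with a relative in another organ: the same sequence with 1 more base at its 3' end was listed at 63.3 RPM in ovary and 33.2 RPM in testis. What RNA these sequences come from was not determined.

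A word of 5 letters, GATCT, recurred among them. It was noticed after the sequences had been read. It occurred in 7 of the 32 unmatched members, starting at positions 2 to 5, and in 3 members of the 5S middle stretch, hence in 10 of 71 (14.1%). Among all non-miRNA sequences at or above the common minimum it was found in 15 of 134 in ovary (11.2%) and 27 of 144 in testis (18.8%). In brain and liver it was found in 0 of 155 for female brain, 0 of 64 for female liver, 1 of 126 for male brain and 0 of 73 for male liver. The 1 in male brain was a fragment of the same 5S middle stretch. The rule of selection shapes this contrast. With the word, 10 sequences in ovary and 22 in testis were listed in that organ alone, so they could not occur elsewhere. The other 5 in ovary were listed in testis too and in no brain or liver library.

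Beside other sets, the makeup of the members was as follows, with no test because sequences from a single library are not replicates. Testis-only sequences chosen in the same way numbered 66, of which 58 began with T (87.9%), 40 had 23 nt (60.6%), 0 matched rRNA and 2 matched tRNA (3.0%). Overlap groups took in 14 of them (21.2%), against 39 of the 71 members (54.9%), 31 of the 63 other non-miRNA ovary sequences (49.2%) and 187 of 218 ovary miRNA sequences (85.8%). The 63 other non-miRNA sequences of ovary, each listed elsewhere too, began with T in 26 cases (41.3%), matched tRNA in 19 (30.2%) and matched rRNA in 4 (6.3%), none of them 5S. The 218 ovary miRNA sequences began with T in 139 cases (63.8%) and had 23 nt in 51 (23.4%). Only-listed sets of the brain and liver libraries were small, with 1 to 5 sequences each. Brain and liver each had a library from the other sex that could list the same sequence, which ovary and testis had not.

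**Figure D5:**
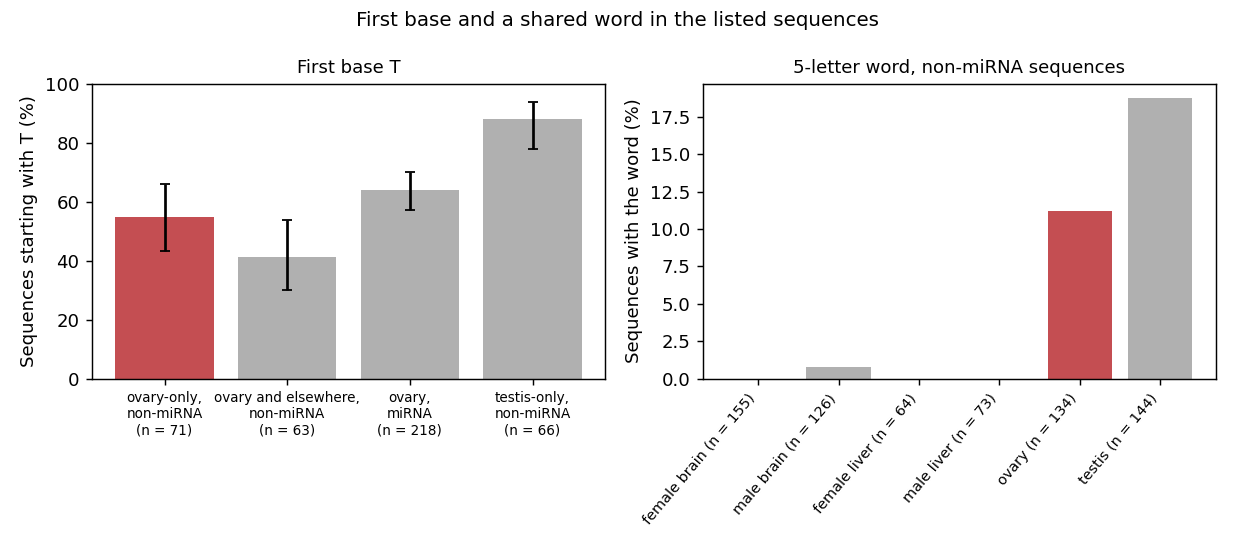
Left, share of sequences starting with T in 4 sets, with 95% Wilson intervals over sequences. Right, share of non-miRNA sequences of each library that hold the word GATCT. Sequences of 1 library overlap and are not replicates, so the intervals do not test a difference between sets. Counting each overlap group once gave 70.5% T for the members, above their interval of 43.4% to 66.0%. Ovary-only sequences stand at 54.9% for T, between shared ovary sequences (41.3%) and testis-only sequences (87.9%). The word was found in ovary and testis at 11.2% and 18.8% and in brain and liver in at most 0.8%. Of the 15 ovary sequences with it 10 were members, which the rule of selection keeps out of the other libraries.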

How the data were processed

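Values were deposited by the authors as a sequence, its length and an expression value, read here as RPM because the values behave so and the header names no unit. In each file 100.0% of values were whole multiples, within 0.02, of 1 read in a fixed total. CASAVA 1.7.0 is named in the submitters' processing notes; trimming and filters were not given in the sources used here. Members, lists and classes were chosen with earlier results of these data known.

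Members matched none of 212 miRNA references (162 family arms; at most 2 mismatches, 5' shift of at most 3 nt, overlap of at least 17 nt) and none of 6 adapters. Comparison used 10 rRNA and 27 tRNA references. All were conserved vertebrate sequences written from general knowledge, not medaka sequences, and those for 18S and 28S rRNA were human stretches. Relatives in other libraries shared at least 18 nt with at most 3 mismatches and a shift of at most 3 nt. A share of a pair used as its limit the listing minimum of the library that did not list a form, and assumed that no other filter had removed it. The direct rRNA and tRNA match, the miRNA match, the overlap grouping and the scaling to reads were tried on simulated sequences. Those for the matches were cut from the references themselves, so they do not show how well medaka RNA is found. The wider assignment and the searches for relatives and ping-pong pairs were not tried in this way. Named members are the 15 most abundant, the top member of each overlap group of 3 or more, the rRNA and tRNA matches and those nearest the minimum; others named were chosen after their values were seen. Tools were Python 3, pandas and scipy.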

Additional observations from a re-analysis of the deposited data

How the results depend on the processing

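Of 80 values recomputed under other settings, 58 kept within the 95% interval of the reported share or, for the number of members, within 1.5 times of it. These limits are wide for shares of the 71 members and narrow for the share of reads, so the tally mixes unlike criteria. T first, for example, was 46.2% when weighted by reads and counted as kept. The 58 include every value under the other miRNA filters and the file's own minimum. Those settings left the same 71 members, so their values could not move. A minimum of 20 RPM left 27 members and 0.133% of reads, with A at position 10 in 7.41% and rRNA in 3.70%. A minimum of 50 RPM left 10 members and 0.0870% of reads, with T first in 40.0%, A at position 10 in 0.0%, overlap groups at 30.0%, rRNA at 0.0% and tRNA at 40.0%. Leaving out members that overlap a sequence of another library gave 0.129% of reads, 3.70% rRNA and 1.85% tRNA. Counting each overlap group once raised T first to 70.5%, and weighting by reads lowered A at position 10 to 10.8%. Without mismatches 4.23% matched rRNA and 1.41% tRNA. Direct 5S matches alone, a setting chosen after seeing the data, lowered 5S in ovary from 294 to 101 RPM and its ratio to 18S from 2.15 to 0.737. Of 2 further such settings, counting a sequence as listed elsewhere only from the common minimum gave 0.197% of reads and not using testis 0.222%. The other miRNA filters and the file's own minimum left the 71 members. miRNAs of a reference table could not be used because no such table was at hand. No paired analysis was possible because each group has 1 library. With the lowest members at 230 reads, the listing minimum and any filter that was not given limit absence calls.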

Other observations

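In addition to the ovary-only sequences, 10 non-miRNA sequences were listed at or above 10.03 RPM in ovary and testis and in no brain or liver library. They summed to 293 RPM in ovary, none matched rRNA or tRNA, 7 began with T, 6 had 23 nt and 5 held the word GATCT. The most abundant in ovary, the longer relative of Unmatched 2, stood at 63.3 RPM in ovary and 33.2 RPM in testis.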
